A study of Mus musculus with 6 samples.

Results

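The 9 genes described here are members of the interleukin-1 (IL-1) family and of the inflammasome, which makes some IL-1 family ligands active. They are the ligands *Il1a*, *Il1b* and *Il18*, the inhibitors *Il1rn* and *Il18bp*, the receptors *Il1r1* and *Il1r2*, the sensor *Nlrp3* and the protease *Casp1*. They were chosen by symbol from a table of raw RNA-seq counts, where all 9 were found among 24061 genes, and all 9 passed the filter on low counts that left 13348 genes for testing. The counts came from 6 libraries of macrophages sorted from the inguinal mammary glands of FVB/N mice, with the lymph nodes removed first, by the surface markers CD45, CD11b and F4/80. Of these, 3 libraries were from cells that carried the hyaluronan receptor Lyve-1 (Lyve-1+) and 3 from cells that did not (Lyve-1-), and every library pooled the cells of 4 mice. Both libraries numbered 1 came from mice 6 weeks old, and those numbered 2 and 3 from mice 10 weeks old. The labels name no transgene and no treatment. The question addressed was whether the subsets differ in transcript levels, and for these genes whether one subset carries more of the IL-1 pathway than the other.

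IL-1α and IL-1β are cytokines that macrophages release upon infection or injury. They bind the same receptor, IL-1R1, which signals through MyD88 to NF-kB. IL-1β and IL-18 are made as inactive precursors, and caspase-1, recruited to an inflammasome by a sensor such as NLRP3, cuts them into their active forms. Several members of the pathway act against it: the receptor antagonist encoded by *Il1rn* occupies IL-1R1 without signalling, IL-1R2 is a decoy that binds IL-1 without signalling, and the IL-18 binding protein holds IL-18 in solution. Transcript counts therefore show the supply of precursors and inhibitors and do not show how much active cytokine was released.

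*Il1a* and *Il1b* lie near each other on the minus strand of mouse chromosome 2. In GENCODE M21 on mm10, *Il1b* spans chr2:129364570-129371139 and *Il1a* spans chr2:129299610-129309972. *Il1rn* lies far from them on the same chromosome (chr2:24336853-24351494), and the receptors *Il1r2* (chr1:40074079-40125231) and *Il1r1* (chr1:40225080-40317257) are neighbours of one another. The others are *Il18* (chr9:50554827-50581840), *Casp1* (chr9:5298517-5307265), *Il18bp* (chr7:102014885-102018690) and *Nlrp3* (chr11:59541568-59566956), and all 9 are protein-coding. The sequences in front of these genes are shown because *Il1b* was the member whose libraries separated by subset, and because *Il1a* and *Il1b* were the members whose promoters held a TATAAA box. Each is the 250 bases before the RefSeq start of the gene (GRCm38.p6, minus strand), from chr2:129309973-129310222 for *Il1a* and chr2:129371140-129371389 for *Il1b*. Capitals mark TATAAA on the sense strand and, in *Il1a*, GAGGAA, the core of the site bound by the myeloid factor PU.1.
Il1a: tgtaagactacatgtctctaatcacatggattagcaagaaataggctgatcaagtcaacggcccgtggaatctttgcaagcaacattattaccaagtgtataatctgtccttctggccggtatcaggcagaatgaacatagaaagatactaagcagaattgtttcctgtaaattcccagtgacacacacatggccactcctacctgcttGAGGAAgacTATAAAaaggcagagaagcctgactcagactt
Il1b: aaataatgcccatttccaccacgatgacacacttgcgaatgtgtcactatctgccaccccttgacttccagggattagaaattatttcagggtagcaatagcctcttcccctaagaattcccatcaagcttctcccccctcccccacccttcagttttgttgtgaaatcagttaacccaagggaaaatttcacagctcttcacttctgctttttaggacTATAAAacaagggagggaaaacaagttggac
TATAAA began 32 bases before the start in *Il1a* and 31 bases before it in *Il1b*, and 7.59% of 32851 RefSeq promoters of this length held it. All 9 members had a RefSeq entry, with 13 starts in all, and 2 of the 13 starts held TATAAA. The PU.1 core, searched on both strands, was found at 1 start each of *Il1a*, *Nlrp3* and *Casp1* (3 of 13 starts or 23.1%, beside 23.3% of all promoters), and the NF-kB consensus, searched on both strands, at alternative starts of *Il1r1* and *Nlrp3* (2 of 13 starts, beside 7.25%). These matches describe letters in a window of 250 bases and are not binding data.

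The libraries held between 6478007 and 21406839 counts, and by counting error alone a value of 0 could hide up to 3 counts, or 0.144 to 0.437 CPM (counts scaled to a TMM-normalized library of 1000000). *Lyve1*, which checks the labels, had 17 to 75 counts in the Lyve-1- libraries and 4735 to 30871 in the Lyve-1+ libraries. The libraries were uneven in other ways. In Lyve-1- replicate 3, 652 of 1122 olfactory receptor genes, which belong to the sensory neurons of the nose, had counts. In Lyve-1+ replicate 1, 370 of them had counts, and in the others 4 to 134. Lyve-1- replicate 3 and Lyve-1+ replicates 1 and 2 held 9406, 3617 and 4160 olfactory receptor counts, and the other libraries held 122 to 331. Spread evenly over exons by length, a background of that size amounted to at most 16.8 counts for any member in any library. It was 8.01 of the 22 *Il18bp* counts and 16.8 of the 292 *Il1r1* counts in Lyve-1- replicate 3. These values are averages, and the background was not even. In Lyve-1+ replicate 2, 134 of the 1122 olfactory receptor genes held all 4160 counts. A scarce member such as *Il18bp* or *Il1r1* could therefore hold more background than its average. Lyve-1+ replicate 3 also stood apart, with the highest summed level of neutrophil markers (512 CPM, against 73.1 to 128 CPM in the other libraries) and of fibroblast markers (1473 CPM, against 298 to 589 CPM). Pools of one subset varied widely (common biological coefficient of variation 0.931). Nothing in the labels says whether the pools were sorted on separate days, so the p-values measure the spread between these pools.

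*Il1b* was the most abundant member per length of transcript and the only one of the 9 whose libraries did not overlap between subsets. Its raw counts were 24493, 19766 and 7796 in Lyve-1- replicates 1, 2 and 3, and 3297, 16544 and 5000 in Lyve-1+ replicates 1, 2 and 3. Scaled for depth these were 2058, 1756 and 1136 CPM in the Lyve-1- libraries against 251, 793 and 630 CPM in the Lyve-1+ libraries. All 3 Lyve-1+ libraries thus lay below all 3 Lyve-1- libraries, and the 6-week Lyve-1+ library was the lowest of all. The means were 1650.2 ± 470 CPM (SD, n = 3) and 558 ± 278 CPM (SD, n = 3), a 2.96-fold lower level in Lyve-1+ cells. The log2 fold change was -1.56 with a standard error (SE) of 0.38 (unadjusted p = 0.00131), and the edgeR quasi-likelihood test with Benjamini-Hochberg adjustment over all genes gave an adjusted p = 0.117, so *Il1b* was not called. Of all genes tested, 7.69% had an unadjusted p under 0.05, 6.5% had every Lyve-1+ library below every Lyve-1- library, and 14.3% had subsets that did not overlap in either direction.

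The call for *Il1b* depended on the test. DESeq2 gave a difference of similar size, a log2 fold change of -1.59, with an adjusted p = 0.00436, and edgeR with no filter on low counts gave -1.58 with an adjusted p = 4.33e-06. Over all 18 alternatives the log2 fold change lay between -1.92 and -1.04 and the adjusted p between 4.33e-06 and 0.427. Between the 6-week libraries, 1 of each subset, the difference was -3.03 on the log2 scale. At 10 weeks alone, with 2 libraries of each subset, it was -1.04 (SE 0.32, adjusted p = 0.427 in edgeR). Leaving out both libraries with the most olfactory receptor genes gave -1.44 (adjusted p = 0.135 in edgeR), a setting chosen after the data were seen. That setting kept Lyve-1+ replicate 2, which had 4160 olfactory receptor counts. Without Lyve-1+ replicate 3 the log2 fold change was -1.69 (adjusted p = 0.206 in edgeR). In a bulk sample, fewer cells that express a gene and less RNA of that gene per cell cannot be told apart, and this holds for every gene below.

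**Figure D1:**
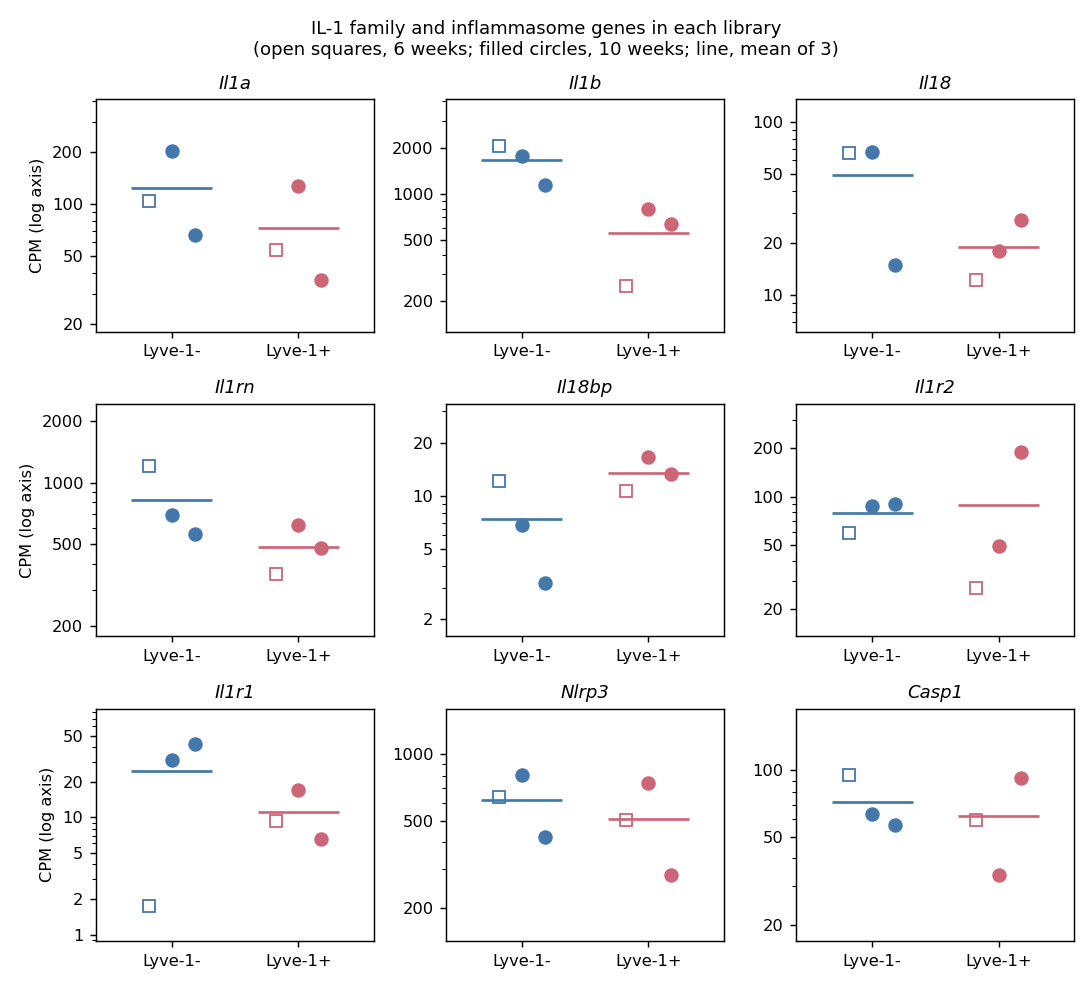
Level of each of the 9 genes in CPM on a log axis, with 1 point per library (open squares, 6 weeks; filled circles, 10 weeks) and a line at the mean of the 3 libraries of a subset. The *Il1b* libraries of the subsets do not overlap, with 1136 to 2058 CPM in Lyve-1- and 251 to 793 CPM in Lyve-1+, and in the other 8 genes they do.

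*Il1a*, the second ligand of IL-1R1, was present at a lower level. It had 104, 203 and 66.3 CPM in Lyve-1- replicates 1, 2 and 3 against 54.3, 128 and 36.2 CPM in the Lyve-1+ replicates. Replicate 2 was the highest library in both subsets, replicate 3 was the lowest in both, and the subsets overlapped. The means were 125 ± 70.8 CPM (SD, n = 3) and 72.9 ± 48.7 CPM (SD, n = 3), with a log2 fold change of -0.77 (SE 0.50, adjusted p = 0.924 in edgeR). Without Lyve-1- replicate 2 the log2 fold change was -0.22, and without Lyve-1+ replicate 2 it was -1.49 (unadjusted p = 0.0035, adjusted p = 0.184 in edgeR). The *Il1a* exons share 222 bases with the antisense transcript *Gm14023*, which was counted at 17.3 ± 9.77 and 8.99 ± 5.14 CPM (SD, n = 3 each). The library kit keeps the strand, but the strand setting of the counting was not given in the sources used here, so reads of the pair may not be fully separated. *Il1b* shares 25 exonic bases with *Il1bos* in the same way, which was counted at 8.71 ± 3.81 and 3.95 ± 4.03 CPM (SD, n = 3 each).

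*Il18*, the third ligand of the set, had 66.4, 67.5 and 15.0 CPM in Lyve-1- replicates 1, 2 and 3 and 12.3, 17.9 and 27.1 CPM in the Lyve-1+ replicates. Lyve-1- replicates 1 and 2 were well above the other libraries, and Lyve-1- replicate 3 lay among the Lyve-1+ libraries. The means were 49.6 ± 30.0 CPM (SD, n = 3) and 19.1 ± 7.48 CPM (SD, n = 3). The log2 fold change was -1.38 (SE 0.59, unadjusted p = 0.0346) and did not pass the test, with an edgeR adjusted p = 0.559. Without Lyve-1- replicate 3 it was -1.81 (adjusted p = 0.334 in edgeR), and among the 10-week libraries alone it was -0.91.

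*Il1rn*, the receptor antagonist, was abundant in both subsets. It had 1205, 698 and 561 CPM in Lyve-1- replicates 1, 2 and 3 against 357, 625 and 481 CPM in the Lyve-1+ replicates, so that only Lyve-1+ replicate 2 reached into the Lyve-1- range. The means of 821 ± 339 CPM (SD, n = 3) and 488 ± 134 CPM (SD, n = 3) gave a log2 fold change of -0.75 (SE 0.31, unadjusted p = 0.0285, adjusted p = 0.534 in edgeR). Most of this difference lay at 6 weeks, where it was -1.75 on the log2 scale between the 2 libraries. The 10-week libraries alone gave -0.20 (SE 0.32).

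*Il18bp*, which encodes the soluble inhibitor of IL-18, was scarce and had its higher mean in Lyve-1+ cells. Its raw counts were 144, 77 and 22 in Lyve-1- replicates 1, 2 and 3 and 139, 345 and 106 in the Lyve-1+ replicates. Scaled for depth these were 12.1, 6.84 and 3.21 CPM against 10.6, 16.5 and 13.4 CPM, and the 6-week Lyve-1- library lay among the Lyve-1+ libraries. The means were 7.38 ± 4.47 CPM (SD, n = 3) and 13.5 ± 2.97 CPM (SD, n = 3), with a log2 fold change of 0.87 (SE 0.99, unadjusted p = 0.397). The *Il18bp* exons share 80 bases with *Numa1* on the other strand, a gene with far more counts, at 237 ± 57.4 and 277 ± 53.5 CPM (SD, n = 3 each), so the *Il18bp* counts are uncertain if strand was not used.

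Each inhibitor was also set against its ligand within a library, which needs no scaling between libraries. As counts per kilobase of exon, *Il1rn* stood at 0.202, 0.137 and 0.170 of *Il1b* in Lyve-1- replicates 1, 2 and 3 and at 0.490, 0.272 and 0.263 of it in the Lyve-1+ replicates. All 3 Lyve-1+ ratios were above all 3 Lyve-1- ratios, by 1.95-fold on average. *Il18bp* stood at 0.0623, 0.0347 and 0.0741 of *Il18* in the Lyve-1- replicates and at 0.294, 0.315 and 0.168 of it in the Lyve-1+ replicates. These groups did not overlap either, and differed by 4.60-fold on average. In log2 units the differences were 0.97 for *Il1rn* to *Il1b* (-2.58 ± 0.28 in Lyve-1- and -1.61 ± 0.50 in Lyve-1+, SD, n = 3 each) and 2.20 for *Il18bp* to *Il18* (-4.20 ± 0.57 and -2.00 ± 0.50, SD, n = 3 each). With 3 libraries against 3, a two-sided exact permutation test cannot go below p = 0.1, and both ratios gave exactly that value (0.15 after Benjamini-Hochberg adjustment over the 3 ratios computed). In both ratios the difference kept its direction at 10 weeks alone, at 0.81 and 2.18 in log2 units. Per kilobase of exon, the ligand was above its inhibitor in every library. For *Il1b* in Lyve-1+ replicate 1 this rested on the exon lengths used, 5535 bases for *Il1rn* and 1907 for *Il1b*. In raw counts that library had more *Il1rn* (4687) than *Il1b* (3297).

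**Figure D2:**
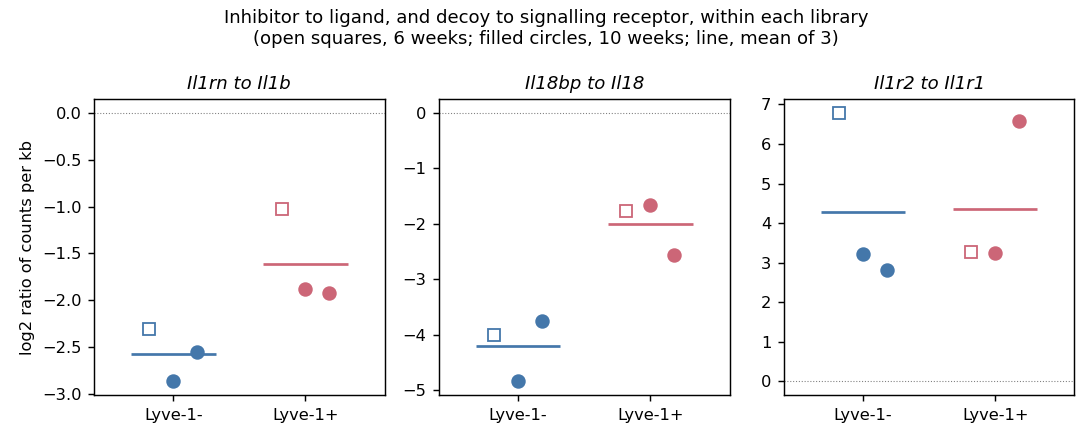
Log2 ratio of counts per kilobase within each library for *Il1rn* to *Il1b*, *Il18bp* to *Il18* and *Il1r2* to *Il1r1*, with 1 point per library (open squares, 6 weeks; filled circles, 10 weeks) and a line at the mean of 3. The Lyve-1+ libraries lie above the Lyve-1- libraries in the first and second ratio, and the subsets overlap in the third.

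Of the receptors, the decoy *Il1r2* was far more abundant than the signalling receptor *Il1r1*. *Il1r2* had 59.7, 86.8 and 89.8 CPM in Lyve-1- replicates 1, 2 and 3 and 27.0, 49.5 and 188 CPM in the Lyve-1+ replicates. The Lyve-1+ subset held both the lowest and the highest libraries. The means were 78.8 ± 16.6 CPM (SD, n = 3) and 88.3 ± 87.5 CPM (SD, n = 3), with a log2 fold change of 0.16 (SE 0.58, unadjusted p = 0.786). This value rested on Lyve-1+ replicate 3: without it the log2 fold change was -1.06 (unadjusted p = 0.0266, adjusted p = 0.53 in edgeR), and every remaining Lyve-1+ library lay below every Lyve-1- library. *Il1r2* is also expressed by neutrophils, and the same library had the most *S100a9* (173 CPM, against 6.13 to 26.0 CPM in the other libraries), *Cxcr2* (49.1 CPM, against 0 to 9.92 CPM) and *Csf3r* (216 CPM, against 41.9 to 86.4 CPM), chosen from the neutrophil list after their values were seen. Another gene of the list, *Retnlg*, had 13.5 CPM in that library, below the 20.4 and 24.2 CPM of Lyve-1- replicates 1 and 3. The granule genes *Camp*, *Ngp* and *Elane* were at 0 in that library. The part of these markers in the *Il1r2* result was not tested.

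*Il1r1* was scarce, and its level was uneven among the libraries. Its raw counts were 21, 348 and 292 in Lyve-1- replicates 1, 2 and 3 and 122, 361 and 52 in the Lyve-1+ replicates, which came to 1.76, 30.9 and 42.6 CPM against 9.30, 17.3 and 6.55 CPM. Lyve-1- replicate 1 was the lowest library of all and the other Lyve-1- libraries were the highest. The means were 25.1 ± 21.0 CPM (SD, n = 3) and 11.0 ± 5.58 CPM (SD, n = 3), with a log2 fold change of -1.18 (SE 0.91, unadjusted p = 0.214). It was -1.74 without Lyve-1- replicate 1 (unadjusted p = 0.0183, adjusted p = 0.496 in edgeR), -0.56 without Lyve-1- replicate 3 (unadjusted p = 0.63), and -0.48 with age in the model. The ratio of decoy to signalling receptor, as counts per kilobase, was 110, 9.35 and 7.03 in the Lyve-1- replicates and 9.65, 9.54 and 95.1 in the Lyve-1+ replicates. The subsets overlapped in it (difference 0.09 in log2 units, exact permutation p = 0.8, 0.8 after adjustment), and 1 library in each subset, Lyve-1- replicate 1 and Lyve-1+ replicate 3, stood far above the other libraries.

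Neither inflammasome gene differed between the subsets beyond the spread between pools. *Nlrp3*, the sensor, was the second most abundant member per length in both subsets, with 638, 806 and 419 CPM in Lyve-1- replicates 1, 2 and 3 and 502, 742 and 284 CPM in the Lyve-1+ replicates. Replicate 2 was the highest and replicate 3 the lowest in both subsets, as for *Il1a*. The means were 621 ± 194 CPM (SD, n = 3) and 509 ± 229 CPM (SD, n = 3), and the log2 fold change of -0.29 (SE 0.34, unadjusted p = 0.413) was smaller than the spread between pools. *Casp1*, the protease, had 95.4, 63.3 and 56.6 CPM in the Lyve-1- replicates and 59.8, 33.7 and 92.4 CPM in the Lyve-1+ replicates, with the subsets fully intermixed. The means were 71.8 ± 20.8 CPM (SD, n = 3) and 62.0 ± 29.4 CPM (SD, n = 3), with a log2 fold change of -0.21 (SE 0.41, unadjusted p = 0.612). Leaving out Lyve-1- replicate 1 turned it to 0.04, leaving out Lyve-1+ replicate 2 turned it to 0.07, and the 10-week libraries alone gave 0.06, so *Casp1* had no steady direction.

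Across the 9 members, 7 had a lower fitted level in Lyve-1+ cells, and the median log2 fold change was -0.75, beside 50.6% lower and a median of -0.01 over all genes tested. In edgeR's quasi-likelihood test, 0 of 9 passed an adjusted p of 0.01 with a log2 fold change between 1 and 10 in size, a rule that 0.112% of all genes passed, and 0 of 9 passed an adjusted p of 0.05, which 0.629% passed. DESeq2 called 1 of 9, *Il1b*, by the first of these rules, which 0.886% of the genes it tested passed. At an unadjusted p under 0.05 in edgeR there were 3 of 9 (*Il1b*, *Il1rn* and *Il18*), all lower in Lyve-1+ cells, beside the 7.69% of all genes. The direction held in all 18 alternatives for 7 of the members, and turned in 4 for *Il1r2* and in 3 for *Casp1*.

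**Figure D3:**
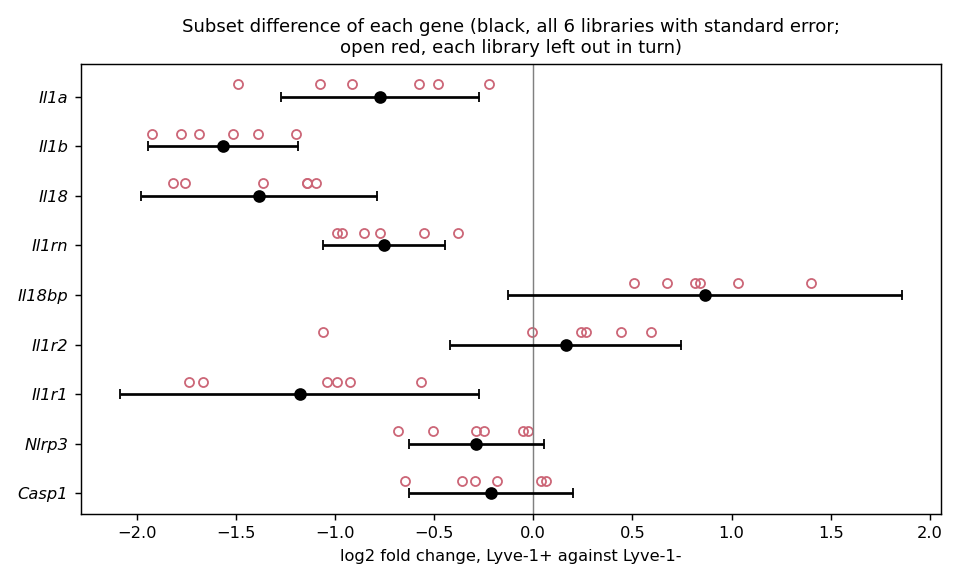
Log2 fold change of Lyve-1+ against Lyve-1- for each gene, with its standard error (black, all 6 libraries) and the value with each library left out in turn (open red circles). *Il1b* stays between -1.92 and -1.20, while *Il1r2* runs from -1.06 to 0.59 and *Casp1* from -0.65 to 0.07.

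Per kilobase of exon, the order of the levels was nearly the same in both subsets for the abundant members. In Lyve-1- cells *Il1b* was at 865 CPM per kilobase, *Nlrp3* at 153 and *Il1rn* at 148, and in Lyve-1+ cells they were at 293, 126 and 88.1 CPM per kilobase. The gap between *Nlrp3* and *Il1rn* in Lyve-1- cells was smaller than the spread between pools. *Il1a* (63.2 and 36.9 CPM per kilobase), *Il18* (48.1 and 18.5), *Casp1* (47.9 and 41.4) and *Il1r2* (41.3 and 46.3) formed a middle group in which the order changed between subsets. *Il1r1* (3.94 and 1.74 CPM per kilobase) and *Il18bp* (2.44 and 4.46) were lowest. These levels divide by all exonic bases of a gene, so a gene with long alternative exons can be understated.

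Age was compared next (10 minus 6 weeks, in a model that also held the subset). *Il1r2* was the only member with an unadjusted p under 0.05, with a log2 fold change of 1.28 (unadjusted p = 0.0399, adjusted p = 1.0 in edgeR), where 3.33% of all genes had one. Without Lyve-1+ replicate 3, the library with the most *Il1r2*, the age change of *Il1r2* was 0.69. *Il1r1* had a log2 fold change of 1.86 (unadjusted p = 0.107), and the other members had unadjusted p-values of 0.397 or more. The test called 0 genes of all those fitted, with 444 at an unadjusted p under 0.05, and 16 genes were called by DESeq2. The fitted subset difference was smaller at 10 weeks than at 6 weeks for *Il1b* (interaction 2.01 in log2 units, unadjusted p = 0.00136, adjusted p = 0.551 in edgeR) and *Il1rn* (1.57, unadjusted p = 0.00839, adjusted p = 0.824 in edgeR). Neither passed the adjusted test. With *Il1r1*, 3 of 9 members had an unadjusted p under 0.05 for the interaction, beside 4.59% of all genes. The subset difference had opposite signs at the 2 ages, with 10-week libraries that did not overlap, in 2 of 9 members (*Il18bp* and *Il1r1*), beside 13.3% of all genes. With 1 library of each subset at 6 weeks, age and the pool cannot be told apart.

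The wider pathway was read from 6 lists that hold 59 further genes, of which 54 were tested. Of these, 31 had a lower and 23 a higher fitted level in Lyve-1+ cells, with a median log2 fold change of -0.12, and 0 passed an adjusted p of 0.05 in edgeR's quasi-likelihood test. At an unadjusted p under 0.05 there were 11 of the 54, and 10 of those were lower in Lyve-1+ cells, beside 7.69% of all genes in either direction. DESeq2 had 2 of the 54 at an adjusted p under 0.05, *Il1rl1* and *Tnfaip3*, both lower in Lyve-1+ cells, beside 1.99% of all genes it tested. The genes named are those with the most positive and the most negative log2 fold change of each list, and none of these passed edgeR's test.

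Among the ligands, *Il33*, an alarmin released by damaged cells, was the only other one tested, with a log2 fold change of -2.19 at very low counts (adjusted p = 1.0 in edgeR). Of the 6 other receptors and binding proteins, 5 had a lower fitted level in Lyve-1+ cells (median log2 fold change -1.32), and 1 had an unadjusted p under 0.05. That gene was *Il1rl1*, the receptor for IL-33, with 307, 64.2 and 179 CPM in Lyve-1- replicates 1, 2 and 3 against 28.3, 32.2 and 73.2 CPM in the Lyve-1+ replicates. Its subsets overlapped in 1 library, and the log2 fold change was -2.04 (SE 0.54, adjusted p = 0.178 in edgeR). *Il18rap*, an IL-18 receptor chain, had the one positive log2 fold change, 0.18.

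The 12 other inflammasome sensors and adaptors had the opposite balance, with 10 of the 12 at a higher fitted level in Lyve-1+ cells (median log2 fold change 0.36) and 0 with an unadjusted p under 0.05. Their log2 fold changes ran from *Naip1*, a sensor of a bacterial secretion needle protein, at -0.67, to *Nlrp6*, a sensor, at 3.15 (SE 2.83). Both were at low counts. *Naip1* had 2, 0 and 120 counts in Lyve-1- replicates 1, 2 and 3 and 74, 65 and 18 in the Lyve-1+ replicates. *Nlrp6* had 0, 0 and 12 against 43, 0 and 97. Some others of the 12 were also at low counts, with 0 in some libraries, so the count of 10 rests in part on scarce genes. Of 5 other caspases and pore formers, 3 had a higher fitted level (median log2 fold change 0.26). *Ninj1*, which ruptures the plasma membrane of dying cells, had a log2 fold change of 0.67 (unadjusted p = 0.0321, adjusted p = 0.55 in edgeR) with all 3 Lyve-1+ libraries above the Lyve-1- libraries, and *Gsdmd*, the pore through which IL-1β leaves, had -0.36.

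The 16 genes of IL-1 receptor signalling had a median log2 fold change of -0.04, with 10 lower and 6 higher in fitted level. Their log2 fold changes ran from *Chuk*, a kinase of the IKK complex, at -1.29 (unadjusted p = 0.0176, adjusted p = 0.43 in edgeR) to *Tab1*, a partner of the kinase TAK1, at 1.64 (adjusted p = 0.882 in edgeR). Of 14 NF-kB response genes, 11 had a lower fitted level in Lyve-1+ cells (median log2 fold change -0.46). Of these, 6 had an unadjusted p under 0.05 in edgeR, beside 7.69% of all genes in either direction. *Relb*, a subunit of NF-kB that is abundant in dendritic cells, had a log2 fold change of -1.16 (SE 0.34, adjusted p = 0.203 in edgeR), and *Ccl4*, a chemokine, had 0.33.

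Between the subsets, markers of mature dendritic cells moved in the same direction as *Il1b*. All 8 of the listed genes (*Ccr7*, *Fscn1*, *Ccl22*, *Ccl17*, *Cacnb3*, *Socs2*, *Il12b* and *Cd83*) were tested and had a lower fitted level in Lyve-1+ cells, each at an unadjusted p under 0.05. Of all genes tested, 7.69% had an unadjusted p under 0.05 in either direction. In edgeR 0 of the 8 passed an adjusted p of 0.05, beside 0.629% of all genes. In DESeq2 5 of the 8 did, beside 1.99% of the genes it tested. Their median log2 fold change was -3.02. *Cd83*, which macrophages also express, made up most of their summed level in each library other than Lyve-1- replicate 3 and was 1.68-fold lower in Lyve-1+ cells, while the other 7 markers were 6.09- to 13.6-fold lower. Without *Cd83*, a sum chosen after the data were seen, the level was 412, 1542 and 2048 CPM in Lyve-1- replicates 1, 2 and 3 and 43.4, 200.4 and 248 CPM in the Lyve-1+ replicates, so the subsets did not overlap. Within the Lyve-1- subset this sum was lowest in replicate 1, where *Il1b* was highest at 2058 CPM. The sum was highest in replicate 3, where *Il1b* was lowest at 1136 CPM. Within the Lyve-1+ subset both were lowest in replicate 1. None of the 8 genes was at 0 in any library. The part of these cells in the *Il1b* result was not tested.

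**Figure D4:**
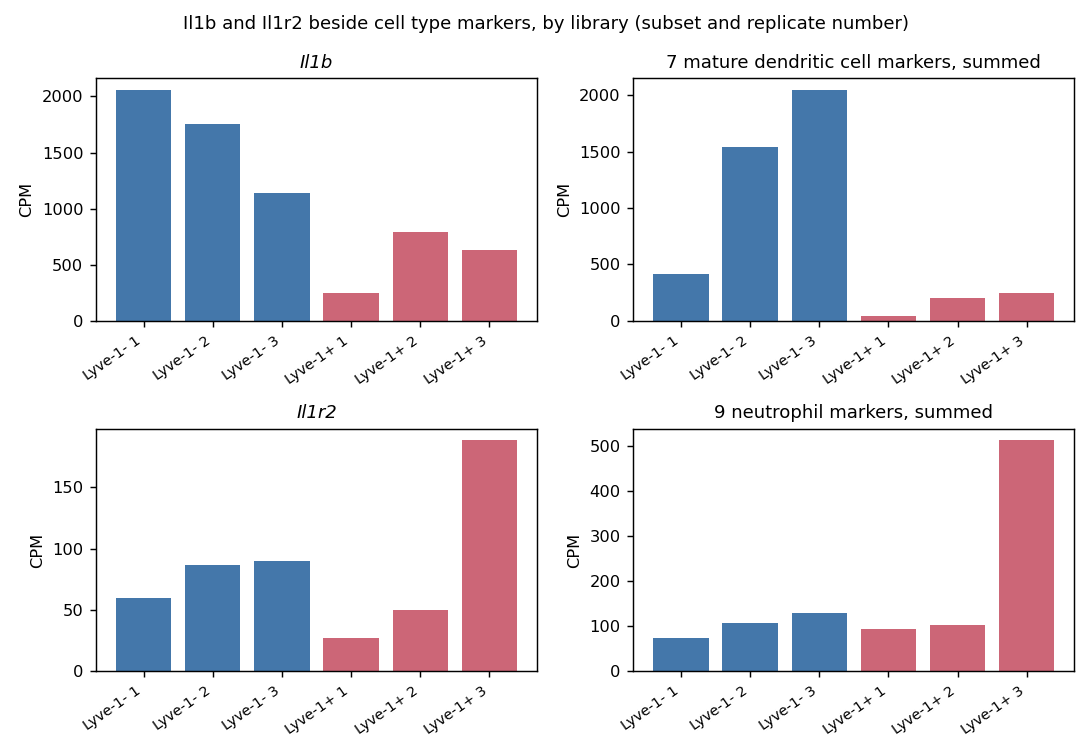
Level in CPM of *Il1b* and *Il1r2* beside the summed level of 7 mature dendritic cell markers, without *Cd83*, and of 9 neutrophil markers, with 1 bar per library named by subset and replicate number. The dendritic cell sum is 412 to 2048 CPM in Lyve-1- and 43.4 to 248 CPM in Lyve-1+. Among the Lyve-1- libraries it rises from replicate 1 to replicate 3 while *Il1b* falls. The neutrophil sum and *Il1r2* are both highest in Lyve-1+ replicate 3.

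Macrophage markers, which check the labelled cell type, were high in every library, with all 9 tested and summed levels of 4855 to 7480 CPM in Lyve-1- and 5849 to 7232 CPM in Lyve-1+. Monocyte markers summed to 458 to 1102 and 313 to 823 CPM, conventional dendritic cell markers to 225 to 391 and 111 to 266 CPM, and fibroblast markers to 298 to 388 and 530 to 1473 CPM. Neutrophil markers summed to 73.1 to 128 CPM in Lyve-1- and 93.6 to 512 CPM in Lyve-1+, with 9 of 10 listed genes matched. The sums for mammary epithelium were 41.9 to 289 and 71.2 to 95.5 CPM, for endothelium 81.1 to 151 and 58.2 to 222 CPM, for T cells 55.5 to 105 and 9.30 to 57.5 CPM, for B cells 3.02 to 34.0 and 10.9 to 87.2 CPM, and for mast cells 32.8 to 72.1 and 29.9 to 188 CPM.

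The members varied in how closely they followed each other over the 6 libraries. In log2 CPM, *Il1a* and *Nlrp3* had a Pearson r of 0.94, *Il1b* and *Il1rn* 0.89, and *Il1b* and *Il18* 0.79, while *Il18bp* and *Il1r1* had -0.64. The genes most like *Il1b* were *Flna*, *Gp49a* and *Fam107b* (r of 0.993, 0.991 and 0.990), and those most like *Il1a* were *Ccrl2*, *Plcb1* and *Tlr2* (0.985, 0.983 and 0.976). *Il1rn* was most like *Ddx1*, *Ncapg* and *Rala*, *Il18* like *Arhgap4*, *Taf2* and *Cd48*, and *Il18bp* like *Fis1*, *Hsd3b7* and *Cep290*. *Il1r1* was most like *Anxa3*, *Sp2* and *Eno2*, *Il1r2* like *Slc7a1*, *Zc3h12d* and *Csnk1e*, *Nlrp3* like *Zfp655*, *Pfn1* and *Nono*, and *Casp1* like *Ssb*, *Safb2* and *Nr1h2*. These rest on 6 points that share their libraries and depths, were picked as the highest of 7107 or 7108 genes, and describe the libraries only.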

How the data were processed

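RNA was extracted from the sorted cells, and libraries were made with the SMARTer Stranded Total RNA-seq Pico kit. The authors aligned the reads to mm10 with HISAT2 2.0.2 and assigned them to genes with featureCounts 1.5.0, per the labels, and deposited whole-number raw counts per gene symbol for 24061 genes, without normalization. The annotation and the strand setting are not given in the sources used here. The study's methods name a 6-week library left out as an outlier and a removal of genes under 300 bp, while the deposited counts still hold shorter genes, which were kept.

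The 9 members, the pathway and marker lists and the tests were chosen with earlier results of these data known. Counts were filtered with filterByExpr by subset and normalized by TMM, and the subsets were compared with edgeR 4.0.16 (quasi-likelihood F test, robust, Benjamini-Hochberg adjustment over 13348 genes) in R 4.3.3. Calls needed a log2 fold change of between 1 and 10 in size and an adjusted p under 0.01. Age was tested in a model with both terms, and their interaction in another. Ratios used counts, with 0.5 added, per kilobase of GENCODE M21 exons and exact permutation tests in SciPy 1.17.1. Likeness used log2 CPM with a prior count of 2 among genes with a mean above 4. The genes named were the members, the extremes of each pathway list, and 3 most similar genes per member; *Tnfaip3* and single markers were named after their values were seen. DESeq2 1.42.0 and other filters, scalings, sets of libraries and the replicate number as a block were alternatives. The tests were tried on simulated data. Promoter sequences are from RefSeq (GRCm38.p6).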

Additional observations from a re-analysis of the deposited data

Results flagged for a closer look

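The subset difference had opposite signs at 6 and at 10 weeks in 2 of 9 members whose 10-week libraries did not overlap, where 13.3% of all genes tested had this pattern. For *Il18bp*, the 6-week libraries had 139 counts (10.6 CPM) in Lyve-1+ and 144 counts (12.1 CPM) in Lyve-1-, a log2 difference of -0.19, while the 10-week libraries had 16.5 and 13.4 CPM in Lyve-1+ against 6.84 and 3.21 CPM in Lyve-1-. The interaction of subset and age was 1.76 in log2 units (unadjusted p = 0.455, edgeR adjusted p = 0.984), so the change with age did not pass the test.

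For *Il1r1*, the 6-week libraries had 9.30 CPM in Lyve-1+ and 1.76 CPM in Lyve-1-, a log2 difference of 2.29, while the 10-week libraries had 17.3 and 6.55 CPM in Lyve-1+ against 30.9 and 42.6 CPM in Lyve-1-. The interaction was -4.01 (unadjusted p = 0.0294, edgeR adjusted p = 0.976). The 6-week Lyve-1- value rests on 21 counts. With 1 library of each subset at 6 weeks, age and the pool cannot be told apart.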

How the results depend on the processing

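The call for *Il1b* changed with the test and the filter. Its log2 fold change was -1.58 with no filter on low counts and -1.59 in DESeq2, and it was then called, so members called went from 0 to 1 in both. Genes called went from 15 to 188 with no filter, 148 in DESeq2, 32 with at least 10 counts in every library, 140 with the replicate block, 58 with age as a covariate and 84 at an adjusted p under 0.05 with no limit on the fold change. They numbered 0 without Lyve-1- replicate 3 and Lyve-1+ replicate 1 together (chosen after the data were seen) and 1 to 81 with 1 library left out, the 1 being without Lyve-1- replicate 3. The cause was not tested.

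*Il1r2* had a log2 fold change of -0.32 with the replicate block and -0.083 with age as a covariate, and *Casp1* had 0.058 at 10 weeks alone. With 1 library left out, *Il1r2* ran from -1.06 to 0.59, *Casp1* from -0.65 to 0.066 and the *Il1r2* to *Il1r1* ratio difference from -1.01 to 1.35. *Il1b* had a log2 fold change of -1.65 under the block (edgeR adjusted p = 0.266). Deviations from the subset means correlated at -0.05, -0.00 and -0.15 between libraries with the same number, and no library correlated best with its own number. With 3 libraries of each subset, this check cannot exclude that equal numbers mark pairs. *Il1a*, *Il1r2* and *Nlrp3* ranked the 3 replicates alike in both subsets, and the other members did not. The labels do not say whether libraries with the same number came from the same mice, and number 1 also marks the 6-week pools. The main test left the numbers out, so a pairing, if there was one, was not used in its p-values. *Il1a* had -0.83 under the block (unadjusted p = 0.0179, edgeR adjusted p = 0.322), and 0 members were called under it.

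For age, the log2 fold changes of *Il1b* and *Il18* were -0.10 and -0.30 with no second term, that of *Nlrp3* was 0.0048 in DESeq2, and genes called went from 0 to 16 in DESeq2. With 1 of the 10-week libraries left out, the age change ran from -0.041 to 0.75 for *Il1a*, -0.38 to 0.0019 for *Il1rn*, -0.50 to 0.50 for *Il18* and -0.39 to 0.20 for *Nlrp3*, and genes called from 0 to 20, with 20 without Lyve-1+ replicate 2 or 3. The other scalings moved the median of all genes by less than 0.1 on the log2 scale.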
